A study of Mus musculus with 8 samples.

Results

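Neutrophils of the mouse kidney were examined as the 1204 cells that the authors assigned to the class Neutro, out of 77393 cells in 28 classes. The samples were whole kidney from adult C57BL/6 mice of 7 weeks with no allele or transgene named in the labels, profiled by droplet single-cell RNA sequencing. In 2 UUO samples the left ureter had been ligated and the animals were killed on day 7, and 6 Control samples carry the disease label control. The labels give every sample the same treatment text, so the handling of the Control animals is unknown here, and whether each sample is a separate animal is not stated. UUO samples 1 and 2 held 400 and 366 neutrophils, and Control samples 1 to 6 held 18, 28, 13, 31, 201 and 147.

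Neutrophils are short-lived granulocytes made in the bone marrow that circulate in blood and are among the first leukocytes to enter injured tissue. They engulf particles, release antimicrobial granule proteins and oxidants, and recruit other leukocytes. Ureteric obstruction, which backs urine up into the kidney, is known to draw them in. They are also known for a low RNA content beside other leukocytes, which makes them easy to lose or to confuse with damaged cells in droplet data. Their defining transcripts in the mouse include S100a8 and S100a9, which encode the subunits of calprotectin, and Csf3r, which encodes the receptor for granulocyte colony-stimulating factor. The values used here are 3 measures per cell (unique transcript molecules, or UMIs; genes detected; and the percentage of UMIs from mitochondrial genes) and an embedding position, so the class name was not checked against these markers and rests on the authors' assignment.

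The libraries differed in size, at 18393 and 12930 cells in UUO and 2263 to 16168 cells in Control, and the 4 libraries over 10000 cells were UUO 1 and 2 and Controls 5 and 6. The numbers of cells per class in Controls 3 and 4 were not separable from sampling noise at 0.05 (chi-square p = 0.0509, against at most 4.09e-41 in the other 14 Control pairs), which does not show that the libraries are the same. They were pooled and counted as 1 sample, which left 5 Control samples, although they shared only 10 cell barcodes. Of 74073 distinct barcodes 3243 occurred in more than 1 library, 103 neutrophils had a barcode that also marked a cell of another library, and 4 of these were neutrophils in both. Controls 4 and 5 stood apart within the class, with a majority of their neutrophils at or above 10% mitochondrial UMIs, and the comparisons of cell numbers, UMIs and genes are given with and without such cells.

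The number of neutrophils recovered was examined first. Neutrophils made up 2.17% (1.97 to 2.40) of all cells in UUO 1 and 2.83% (2.55 to 3.13) in UUO 2 (exact 95% binomial intervals, counting error only). Among the 6 Control samples, in numerical order, the share was 0.50%, 0.435%, 0.574%, 0.785%, 1.24% and 1.08%. The groups did not overlap, and the highest Control sample, Control 5, had an upper limit of 1.43%, below the lower limit of either UUO sample. The mean share of all cells was 2.50% ± 0.464 over the 2 UUO samples and 0.793% ± 0.355 over the 5 Control samples (SD), and the means stood in a ratio of 3.16.

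On the log2 odds scale this was a UUO minus Control difference of 1.78 (95% interval 0.11 to 3.44). The two-sided exact permutation p was 0.0476, the smallest possible for 2 samples against 5, but the difference did not pass limma's adjusted p of 0.05 over the 28 classes (0.0623). In that fit 21.4% of the classes (6 of 28) were called higher and 28.6% lower in UUO, and neutrophils ranked 7 from the top by the size of their difference. With Controls 3 and 4 kept separate the difference was 1.80 and passed (limma adjusted p 0.0458). Without Control 5 it was 1.97 and passed (limma adjusted p 0.0463), with 57.1% of classes called, 25% higher and 32.1% lower. With any other single Control sample left out it did not pass (limma adjusted p 0.0593 to 0.140). Among the 4 libraries over 10000 cells it was 1.12 and did not pass either (0.289).

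**Figure D1:**
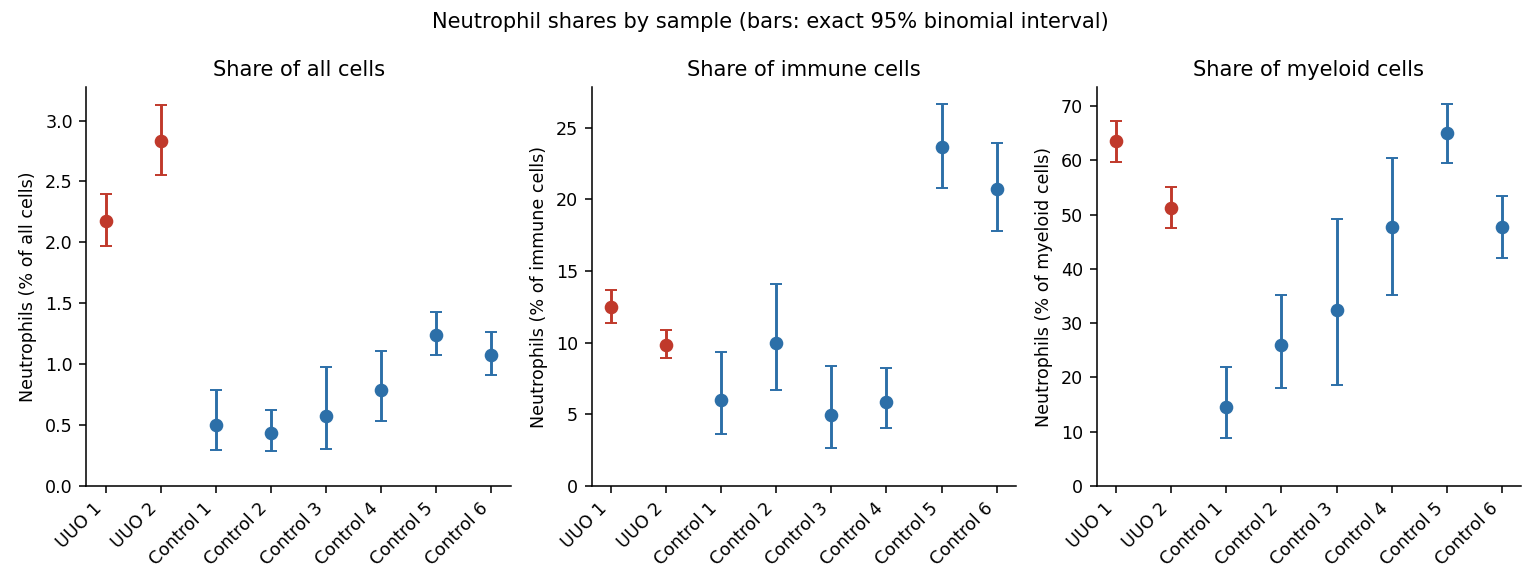
Percentage of neutrophils among all cells, among immune cells and among myeloid cells in each sample, UUO samples in red and Control samples in blue, with exact 95% binomial intervals. In the share of all cells both UUO samples, at 2.17% and 2.83%, lie above every Control sample. In the share of immune cells Controls 5 and 6, at 23.6% and 20.7%, lie above both UUO samples. Without immune cells at or above 10% mitochondrial UMIs (not drawn) the Control 5 share of immune cells is 9.39%, below both UUO samples.

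As a share of immune cells, neutrophils were not separated between the groups. They made up 12.5% and 9.86% of immune cells in UUO 1 and 2. Controls 1 to 6, in order, had 6.02%, 9.96%, 4.98%, 5.89%, 23.6% and 20.7%. The UUO samples lay inside the Control range, with Controls 5 and 6 above them and Controls 1, 3 and 4 below. Means were 11.2% ± 1.85 (SD, n = 2) in UUO and 13.2% ± 8.44 (SD, n = 5) in Control. The log2 odds differed by -0.05 (95% interval -1.72 to 1.63; limma adjusted p 0.976; two-sided exact permutation p 0.905). That interval spans both a halving and a doubling of the odds, so the comparison does not show equal shares. Of the 15 immune classes 0% were called by limma in either direction.

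The sign of that difference changed with the Control samples used. It was -1.19 among the 4 libraries over 10000 cells (limma adjusted p 0.0456), 0.71 without Controls 5 and 6 (adjusted p 0.562) and 0.27 without Control 5 alone.

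Among the 6 myeloid classes (neutrophils, macrophages, monocytes, basophils, dendritic cells and plasmacytoid dendritic cells), neutrophils were the largest in both UUO samples and in Controls 3 to 6. They were 63.5% and 51.3% of myeloid cells in UUO 1 and 2. The Control samples, from 1 to 6, had 14.5%, 25.9%, 32.5%, 47.7%, 65.0% and 47.7%. Control 5 stood above both UUO samples and the other Control samples below them. Means were 57.4% ± 8.65 (SD, n = 2) in UUO and 39.0% ± 19.6 (SD, n = 5) in Control. The log2 odds differed by 1.18 (-0.56 to 2.92, limma adjusted p 0.352, exact permutation p 0.286), and 0% of the 6 classes were called. Among the 4 libraries over 10000 cells the difference was only 0.05 (limma adjusted p 0.973). With the immune cells of 10% or more mitochondrial content removed, the shares were 64.1% and 52.5% in UUO 1 and 2, above every Control sample (14.0% to 47.8%). The difference was then 1.64 (-0.15 to 3.43; limma adjusted p 0.212; exact permutation p 0.0952).

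The ratio of neutrophils to each other myeloid class showed the widest gap against macrophages, phagocytes both resident in the tissue and recruited from the circulation. There were 9.09 and 5.55 neutrophils per macrophage in UUO 1 and 2, from 44 and 66 macrophages. Control 1 had 0.261, Control 2 had 0.596, the pooled Controls 3 and 4 had 2.10, Control 5 had 4.47 and Control 6 had 3.97. Both UUO samples exceeded every Control sample, and the log2 difference was 2.31, with a two-sided exact permutation p of 0.0952 and a Benjamini-Hochberg value of 0.476 over the 5 ratios.

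Against monocytes, the blood precursors of many tissue macrophages, the UUO samples had 4.12 and 4.16 neutrophils per cell, inside the Control range of 1.56 to 11.2. The log2 difference was 0.53 (adjusted exact p 0.524). Against basophils, rare granulocytes of allergic and type 2 responses, there were 8.70 ± 4.34 neutrophils per cell in UUO (SD, n = 2) and 26.8 ± 26.8 among Control samples (SD, n = 5), with a log2 difference of -0.99 (adjusted exact p 0.524). The Control ratio rests on 21 basophils in all. Ratios to dendritic cells, which present antigen to T cells, and to plasmacytoid dendritic cells, which make type I interferon, differed by 0.77 and 1.34 on the log2 scale (adjusted exact p 0.524 for both). Among the 4 libraries over 10000 cells the dendritic cell ratio had the other sign, -0.36. With the same cells removed, the log2 differences were 2.92 for macrophages, 0.87 for monocytes, -0.18 for basophils, 0.92 for dendritic cells and 1.64 for plasmacytoid dendritic cells (adjusted exact p 0.357 to 0.952).

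The UMIs detected per neutrophil, which mix sequencing depth with transcript content, also differed between the groups. Neutrophils held a median of 5044.5 and 5574.5 UMIs per cell in UUO 1 and 2. Control medians, from sample 1 to 6, were 1939, 2602.5, 1620, 1438, 1809 and 2282 UMIs. Both UUO medians were above every Control median, and the upper quartile of UMIs in Control samples 1, 2, 5 and 6 (2733, 2992.5, 2795 and 3102) lay below the lower quartile of either UUO sample (3521 and 4590). In Controls 3 and 4, with 13 and 31 neutrophils, the upper quartiles were 5166 and 4188, inside the UUO range. In UUO 1 and 2, 69.2% and 82.0% of neutrophils held at least 4000 UMIs. None of the 18 did in Control 1, and 14.3%, 38.5%, 25.8%, 12.9% and 10.9% did in Controls 2 to 6.

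Over the samples with at least 20 neutrophils, which leaves out Control 1, the sample medians averaged 5310 ± 375 UMIs in UUO (SD, n = 2) and 2036 ± 508 in Control (SD, n = 4), so neutrophil UMIs rose 2.67-fold in UUO (95% interval 1.72 to 4.15; limma adjusted p 0.0105 over 19 classes). The difference was the highest of the 19 classes, of which 10.5% were called higher, the other being macrophages. All of the 19 classes except CD8 effector T cells (-0.09 on the log2 scale) had higher UMIs in UUO, so the direction was not particular to neutrophils. The two-sided exact permutation p was 0.0667, the smallest possible for 2 samples against 4.

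**Figure D2:**
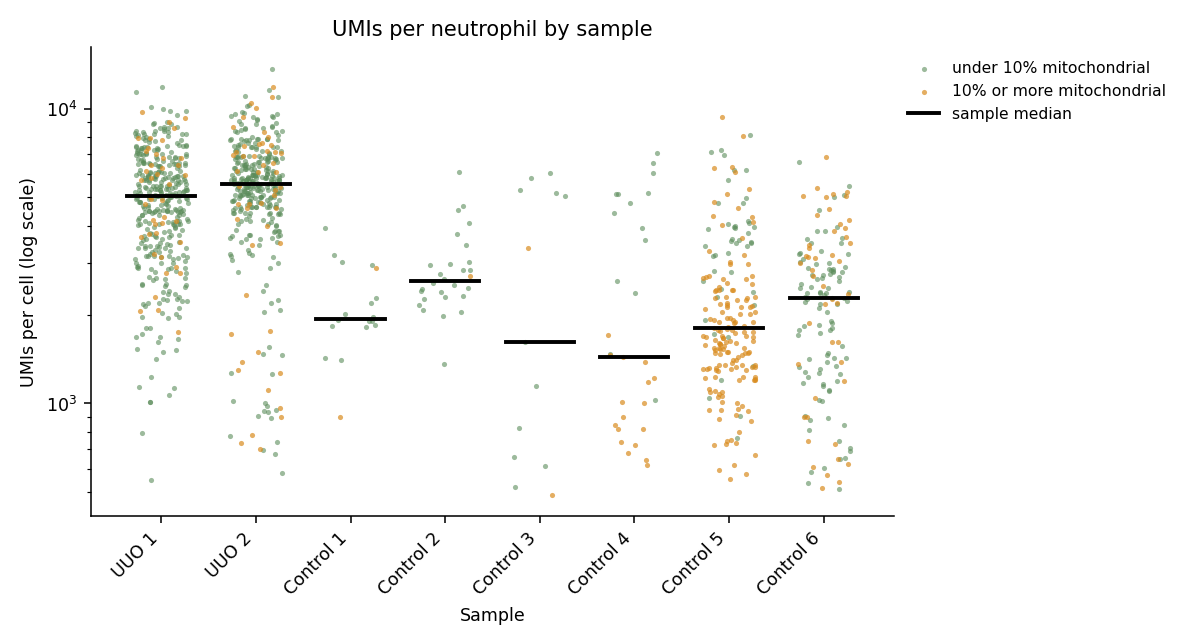
UMIs per cell on a log scale for every neutrophil, by sample, with cells under 10% mitochondrial UMIs in green, cells at 10% or more in orange and the sample median as a black line. The UUO medians of 5044.5 and 5574.5 UMIs lie above all 6 Control medians, and in Controls 4 and 5 the orange cells fill the lower part of the distribution.

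With 1 UUO sample left out the fold stayed near its value (2.81 without UUO 1, limma adjusted p 0.0623; 2.54 without UUO 2, adjusted p 0.133), in fits that assume the lone UUO sample to vary like the Control samples. Relative to the median of all cells of the same sample, which was 2496 and 2583.5 UMIs in UUO and 1292 to 2944 in Control, it was 1.93-fold (adjusted p 0.451).

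Genes detected per cell followed the same order. The median neutrophil had 1747 and 1814.5 genes in UUO 1 and 2. The Control medians were 881.5, 1104.5, 865, 602, 678 and 998 genes, all below both UUO samples. Over samples with at least 20 neutrophils genes rose 2.14-fold in UUO (95% interval 1.44 to 3.18; limma adjusted p 0.0290), the only class called of the 19 tested (5.26%). The deposited table holds no cell above 2998 genes, and 58 UUO neutrophils but 1 Control neutrophil had at least 2500, so the UUO neutrophils lay nearer to the table's upper limit. The call did not hold without Control 6 (2.28-fold, limma adjusted p 0.0589) or relative to the median of all cells of the sample (1.71-fold, 0.668). With a lone UUO sample, under the same assumption on its spread, the fold was 2.18 without UUO 1 (0.0933) and 2.10 without UUO 2 (0.109).

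At a given number of UMIs, genes detected did not differ detectably. Residuals of log2 genes from 1 line in log2 UMIs, fitted over all neutrophils with a slope of 0.753, had sample medians of 0.05 and -0.01 in UUO 1 and 2. They were 0.09 in Control 2, -0.08 in the pooled Controls 3 and 4, -0.17 in Control 5 and 0.09 in Control 6. The UUO samples lay inside the Control range, and the difference of 0.04 (a genes ratio of 1.03) had an exact permutation p of 0.800.

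Neutrophils were then set against the other immune cells of the same library, which removes a shift in depth common to all immune cells. The neutrophil median was 2.47 times that of all other immune cells in UUO 1 and 2.57 times in UUO 2. For Controls 1 to 6 the multiple was 1.54, 1.75, 0.853, 0.838, 0.843 and 1.58. With all cells counted, neutrophils thus held more UMIs than other immune cells in both UUO samples and in Controls 1, 2 and 6. They held fewer in Controls 3, 4 and 5. The low RNA content described above was therefore not seen in UUO or in Controls 1, 2 and 6, and the class was not checked against marker genes in any sample. Without immune cells at or above 10% mitochondrial UMIs, neutrophils held more UMIs than other immune cells in every sample with at least 20 neutrophils. The multiple was then 2.49 and 2.60 in UUO 1 and 2. It was 1.73 in Control 2, 2.49 in the pooled Controls 3 and 4, 1.79 in Control 5 and 1.61 in Control 6. The median of the other immune cells was 2041 and 2171 UMIs in UUO 1 and 2 and 1262 to 2145 in the 6 Control samples, so the groups overlapped there.

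The relative UMIs averaged 2.52 ± 0.0680 in UUO (SD, n = 2) and 1.25 ± 0.489 in Control (SD, n = 4), a 2.14-fold difference (95% interval 1.27 to 3.60). This was the highest of the 11 immune classes tested, and it just missed the threshold (limma adjusted p 0.0540), while 9.09% of the classes were called (macrophages). The two-sided exact permutation p was 0.133. The lowest Control values were those of Control 5 and the pooled Controls 3 and 4. Without Control 5 the difference was 1.92-fold and passed (limma adjusted p 0.000553, 20% of 10 classes called). It also passed without Control 2 (2.45-fold, adjusted p 0.00889), Control 4 (1.90-fold, 0.0407) or Control 6 (2.36-fold, 0.00698). It did not pass without Control 1 (limma adjusted p 0.0505) or Control 3 (0.0575). With a lone UUO sample it did not pass either, at 2.18-fold without UUO 1 and 2.10-fold without UUO 2. Among the 4 libraries over 10000 cells it was 2.18-fold and passed (adjusted p 4.38e-05).

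**Figure D3:**
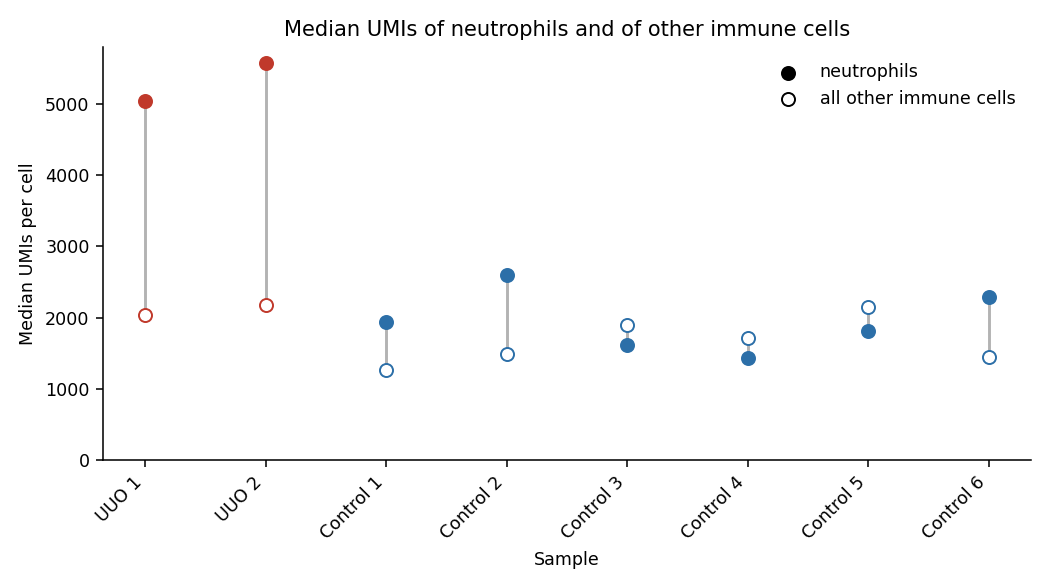
Median UMIs per cell of neutrophils (filled circles) and of all other immune cells (open circles) in each sample, UUO in red and Control in blue, joined by a grey line. With cells of any mitochondrial content counted, neutrophils lie at 2.47 and 2.57 times the other immune cells in the UUO samples and on either side of them in the Control samples. Without immune cells at or above 10% mitochondrial UMIs (not drawn) the multiple is 1.61 to 2.49 in the Control samples with at least 20 neutrophils.

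Neutrophils of the Control samples were of mixed mitochondrial content. The median mitochondrial percentage of neutrophils was 2.31% and 2.90% in UUO 1 and 2. It was, in Controls 1 to 6, 2.86%, 1.87%, 2.28%, 27.4%, 34.2% and 5.70%. Controls 1 to 3 lay at UUO levels, Control 6 somewhat higher and Controls 4 and 5 far above. At or above 10% were 43 of 400 (10.8%, 7.89 to 14.2) and 50 of 366 neutrophils (13.7%, 10.3 to 17.6) in UUO 1 and 2. In Control samples 4, 5 and 6 these were 17 of 31 (54.8%), 156 of 201 (77.6%, 71.2 to 83.2) and 47 of 147 (32.0%, 24.5 to 40.2), and in Control samples 1 to 3 they were 2 of 18, 1 of 28 and 2 of 13.

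In Controls 4 and 5 the high values formed a group of their own. Whether these cells are neutrophils was not checked, since gene-level values are not analysed here, and the Control 5 count of 201 and share of 1.24% include them. At or above 30% were 15 of 31 and 136 of 201 neutrophils there, while only 2 and 20 lay between 10% and 30%. In Control 6, by contrast, 8 were at or above 30% and 39 lay between 10% and 30%. In UUO 1 and 2 only 5 and 4 neutrophils reached 30%, and 38 and 46 lay between 10% and 30%. The Controls 3 and 4 that were pooled by class make-up therefore differed in this respect, with 0 of 13 neutrophils at or above 30% in Control 3.

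**Figure D4:**
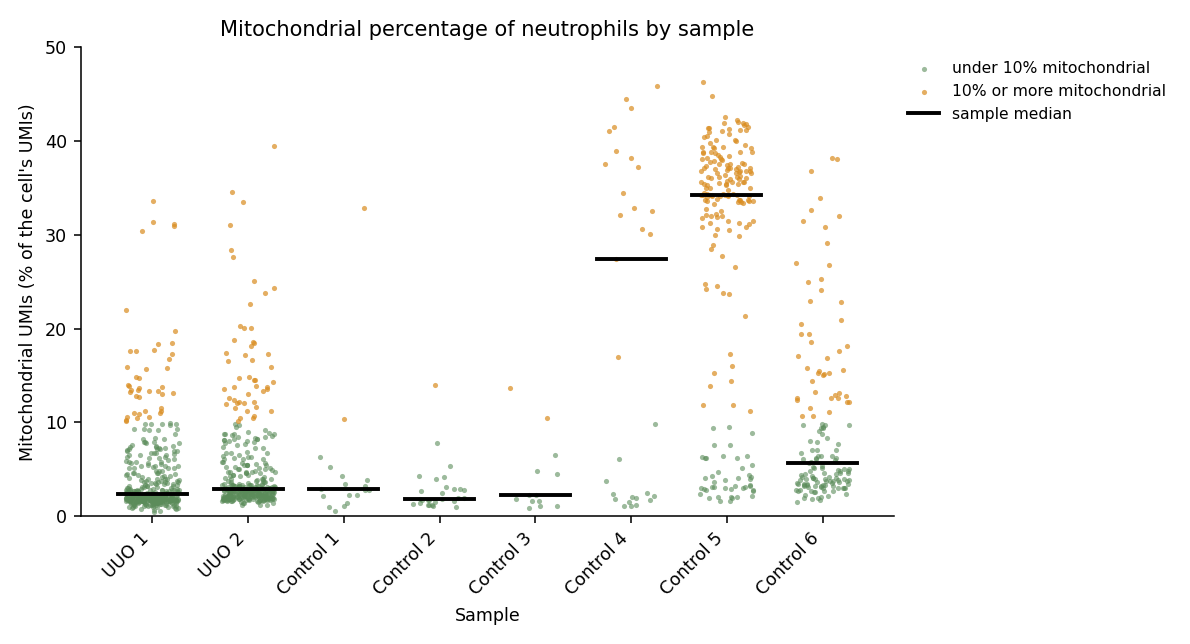
Mitochondrial UMIs as a percentage of each neutrophil's UMIs, by sample, with cells under 10% in green, cells at 10% or more in orange and the sample median as a black line. Controls 4 and 5 hold a separate group above 30% (15 and 136 cells), which is sparse in the other samples.

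Other immune cells of the same libraries did not show this to the same degree. Among them 4.49% and 11% were at or above 10% in UUO 1 and 2, and 6.76%, 8.70%, 4.44%, 4.04%, 33.2% and 25.1% in Control samples 1 to 6. In Control 4 only 1 of 495 other immune cells reached 30%, and in Control 5 92 of 650 did (14.2%). Tubule cells of the class PT, the proximal tubule, which are rich in mitochondria, had medians of 15.9% and 16.0% in UUO 1 and 2 and 9.29% to 17.3% in the 6 Control samples, below the medians of the Control 4 and 5 neutrophils.

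Between the groups as a whole, the mean of the sample medians was 2.60% ± 0.419 in UUO (SD, n = 2) and 11.8% ± 15 in Control (SD, n = 4). The difference of -9.20 percentage points had a 95% interval of -32.7 to 14.3 (limma adjusted p 0.887; exact permutation p 0.533), and 0% of the 19 classes were called. The share at or above 10% averaged 12.2% ± 2.06 in UUO and 39.1% ± 30.6 in Control, a log2 odds difference of -1.87 (-5.29 to 1.54; adjusted p 0.798; exact p 0.333), again with 0% called. The direction was not particular to neutrophils. Regulatory T cells and proliferating lymphocytes had larger differences, at -16.1 and -14.4 points in medians and -1.90 and -2.85 in log2 odds. Without Control 5 the neutrophil difference in medians was -1.73 points (limma adjusted p 0.949), with Controls 3 and 4 still pooled. With these 2 kept separate, where only Control 4 had enough neutrophils, and Control 5 included, it was -14.7 points (limma adjusted p 0.888).

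The high-mitochondrial neutrophils were also poor in transcripts in Controls 4 and 5 but not in UUO. In UUO 1 and 2, neutrophils at or above 10% held medians of 5015 and 5452 UMIs, beside 5060 and 5583 in those under 10%. In Control 4 the medians were 897 at or above 10% and 4604.5 under it, and in Control 5 they were 1633.5 and 3524. In Control 6 the order was the other way, with 2844 UMIs at or above 10% and 2221 under it. Across cells of 1 library, the Spearman correlation of UMIs with mitochondrial percentage was 0.0946 in UUO 1 (400 cells), -0.181 in UUO 2 (366), -0.312 in Control 5 (201) and 0.224 in Control 6 (147). UMIs are the denominator of the percentage, so these correlations are descriptions only.

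Counts, UMIs and genes were compared again without immune cells at or above 10%. Neutrophils then made up 1.96% and 2.53% of all cells in UUO 1 and 2. They were 0.447% in Control 1, 0.421% in Control 2, 0.406% in the pooled Controls 3 and 4, 0.285% in Control 5 and 0.742% in Control 6. Control 5, the highest Control sample with all cells, became the lowest. The mean share was 2.24% ± 0.401 in UUO (SD, n = 2) and 0.460% ± 0.170 in Control (SD, n = 5), and neutrophils rose in UUO by 2.35 on the log2 odds scale (0.74 to 3.95; limma adjusted p 0.0157; exact p 0.0476), with 25% of the 28 classes called higher. As a share of immune cells the difference stayed small, at 10.7% ± 1.53 in UUO and 9.64% ± 6.04 in Control (log2 odds difference 0.37, -1.31 to 2.05; adjusted p 0.687).

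Without the same cells the rise in UMIs was smaller and was not called. Neutrophils under 10% held medians of 5060 and 5583 UMIs in UUO 1 and 2. In Control 2 the median was 2564, in the pooled Controls 3 and 4 it was 4434, in Control 5 it was 3524 and in Control 6 it was 2221. Both UUO samples stayed above every Control sample, though the 25 cells of Controls 3 and 4 came near them. The fold was 1.73 (95% interval 1.05 to 2.84; limma adjusted p 0.190 over 18 classes, 5.56% called), genes were 1.49-fold higher (adjusted p 0.146), and UMIs relative to other immune cells were 1.36-fold higher (adjusted p 0.0772). Counting only UMIs from non-mitochondrial genes, in all neutrophils, gave a larger difference, 5095 ± 367 in UUO (SD, n = 2) against 1716 ± 716 in Control (SD, n = 4), a 3.18-fold rise (1.72 to 5.86; limma adjusted p 0.0218, 10.5% of 19 classes called).

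In the authors' two-dimensional embedding (UMAP, whose distances have no unit) the neutrophils formed a compact island. Of the 15 nearest cells of each neutrophil, 94.9% were neutrophils on average, 2.77% were monocytes and 1.63% dendritic cells, and the class medians nearest to theirs were those of monocytes, dendritic cells and macrophages. Only 2 of the 1204 cells, both from UUO 2, lay more than 3 units from the class median. In 41 neutrophils fewer than 50% of the nearest cells were neutrophils, 30 of 766 in UUO and 11 of 438 in Control.

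Within the island the neutrophils of the groups were mixed unevenly. Taking only neutrophils as neighbours, of whom 63.6% were UUO cells, the average share of UUO cells was 74.1% and 74.8% around the neutrophils of UUO 1 and 2. Around those of Control samples 1 to 6 it was 67.0%, 77.9%, 57.4%, 38.1%, 26.7% and 64.4%. Controls 1 to 3 and 6 were thus embedded among UUO cells to about the overall share, and Controls 4 and 5 were set apart.

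High-mitochondrial Control cells had neighbours of their own kind. The 160 Control neutrophils at or above 30% had 80.5% of their nearest neutrophils at or above 30% too, beside 14.0% of all neutrophils, and 11% from UUO. Control 5 alone supplied 136 of these 160 cells, and 66.5% of the nearest neutrophils of the 160 came from the same library as the cell itself. The 213 Control neutrophils under 10% had 67.1% of their nearest neutrophils from UUO, and the 9 UUO neutrophils at or above 30% had 69.6% from UUO and only 4.44% at or above 30%. How the embedding was made is not known here, so these shares describe it and were not tested.

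**Figure D5:**
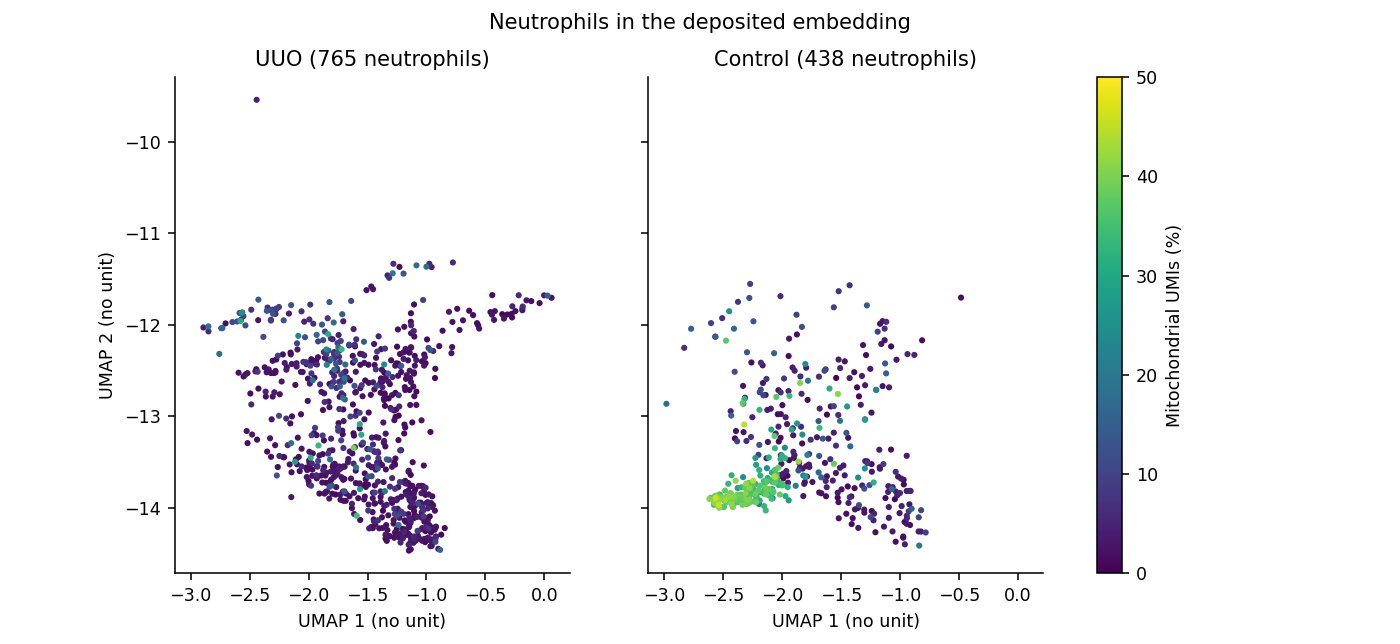
Neutrophils of the UUO samples (left, 765 cells; 1 cell far outside the frame is not shown) and of the Control samples (right, 438 cells) in the deposited embedding, coloured by mitochondrial percentage. A tight group of Control cells above 30% occupies the lower left of the island, where UUO cells are few and low in mitochondrial UMIs.

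The distance between the group means of the sample median positions was 0.576 (two-sided exact permutation p 0.133, with 0.0667 the smallest that 2 samples against 4 allow). Without immune cells at or above 10% it was 0.157 (exact p 0.667).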

How the data were processed

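Whole-kidney cells of 2 UUO and 6 Control samples, grouped by title, were analysed from the table of cells. The submitters' processing notes name the build mm10, Seurat 4.0.1 and Cell Ranger 6.0.1 without roles. No source used here gives the cell filters, class calling or doublet treatment. UMIs and genes per cell are deposited as raw counts, the mitochondrial share as a percent per the file headers, and UMAP positions as a score with no unit, deposited by the authors. No per-sample column was left out (0). Gene-level values are not analysed here.

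The members, class lists, tests and alternatives were chosen with earlier results of these data known. Immune classes (15, of which 6 myeloid) were placed by name. Shares were taken as log2((n + 0.5)/(N - n + 0.5)) per sample and fitted over all classes with limma 3.58.1 in R 4.3.3, with Benjamini-Hochberg adjustment and a threshold of 0.05. In the shares of all cells and of myeloid cells the variance is common to all classes (140 and 30 degrees of freedom). Their intervals therefore do not measure the neutrophils' own spread. Sample medians were fitted likewise over classes that had 20 or more cells in 2 or more samples per group. Single values had a two-sided exact permutation test. Functions were tested on simulated data. With 0 cells in the smallest library (2263 cells; 4375942 UMIs, against up to 56755823) a share of up to 0.133% (3 counts) is possible. Since separate animals are not stated, the p-values cover sample-to-sample spread that may be technical. The text names other classes only where neutrophils are compared with them. Alternatives with edgeR 4.0.16 and other scales, filters and sample sets were run. Leaving out Controls 4 and 5, the threshold of 30% and non-mitochondrial UMIs were added after seeing the data.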

Additional observations from a re-analysis of the deposited data

Results flagged for a closer look

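With Controls 3 and 4 pooled (5.43%), the median mitochondrial percentage of neutrophils in Control 5 lay far from the other Control samples with at least 20 neutrophils. It was 34.2%, and the next value was 5.70% in Control 6. The gap to that value was 0.881 of the range over the 4 samples, above Dixon's critical value at 95% for that number. Chance alone marks about 1 in 20 such groups, and 16 were examined. Of the 201 Control 5 neutrophils, 136 held at least 30% mitochondrial UMIs. Control 4 alone, with 31 neutrophils, had a median of 27.4%, which the pooled value hides, so Control 5 was not the only library with a high median.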

How the results depend on the processing

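Values are UUO minus Control in log2 units unless said, and the cause of each change was not tested. The share of all cells (1.78) passed 0.05 in 10 of 23 alternatives. These were centred log-ratios (1.79), the arcsine scale (0.0712 radians) and the exact test (1.78), whose single p is not adjusted over classes. Also passing were the fits without immune cells at or above 10% (2.35) or 30% (2.24), and with Controls 3 and 4 separate (1.80) or left out (1.76). The others were without Control 5 (1.97), Controls 5 and 6 (2.21) or Controls 4 and 5 (2.03). It did not pass in either edgeR fit (1.65 and 1.33), with an offset of 1 cell (1.76) or in cells with at least 1000 UMIs (1.58). Nor did it in the libraries over 10000 cells (1.12) or with the sample number as a block (2.41). It ran from 1.58 to 1.97 with each sample left out, and among the fits without a single Control sample only that without Control 5 passed. The share of immune cells (-0.05) had the other sign with centred log-ratios (0.0783), without cells at or above 10% (0.37) or 30% (0.36), with Controls 3 and 4 separate (0.15), without Controls 5 and 6 (0.71) or 4 and 5 (0.30) and with the sample number as a block (0.54). It ran from -0.29 to 0.27 with each sample left out and was called in the libraries over 10000 cells (-1.19). UMIs per cell (1.42) did not pass with the exact test (1.42, smallest p 0.0667), without cells at or above 10% (0.79) or 30% (0.84) or relative to all cells (0.95), and genes (1.10) likewise (1.10, 0.57, 0.62 and 0.78). They ran from 1.26 to 1.55 and from 0.97 to 1.24 with each sample left out. UMIs relative to other immune cells (1.10) passed without cells at or above 30% (0.50), in the libraries over 10000 cells (1.12), without Controls 3 and 4 (0.92) or 4 and 5 (0.60), with means over cells (0.82) and with a minimum of 10 (1.02) or 50 cells (1.12), and ran from 0.92 to 1.29 with each sample left out. The share of myeloid cells (1.18) fell to 0.05 in the libraries over 10000 cells. The ratio to dendritic cells was reversed in those libraries (-0.36), and genes at a given number of UMIs without Controls 4 and 5 (-0.0032). Shared numbers pair only samples 1 and 2, the correlations of their deviations were -0.333 and 0.0554 over 28 classes, and no label says that numbers mark a shared animal. With the sample number as a block the share of myeloid cells passed (2.45, adjusted p 0.0370), and the mitochondrial median (1.03 points) and the share at or above 10% (1.55) were reversed, the last 2 resting on UUO 2 and Control 2 alone. Precision is limited by 13 to 31 neutrophils in Controls 1 to 4.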

Other observations

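Neutrophils were the most numerous immune class in some Control samples but in neither UUO sample. Among the 15 immune classes they ranked 2 and 4 from the top in UUO 1 and 2, where CD4 T cells led with 943 and 802 cells. They ranked 1 in Controls 5 and 6, 4 in Controls 1 and 2, 7 in Control 3 and 8 in Control 4. The rank in Control 5 includes 156 neutrophils of 201 at or above 10% mitochondrial UMIs. Without such immune cells the neutrophil share of immune cells was 9.39% in Control 5, below 11.8% and 9.59% in UUO 1 and 2. With all cells counted, neutrophils gave 23.8% and 18.8% of all immune UMIs in UUO 1 and 2, although they were 12.5% and 9.86% of the immune cells. In Control samples 1 to 6 they gave 8.60%, 14.2%, 6.85%, 7.45%, 20.2% and 26.4% of immune UMIs.

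At similar depth, the share of neutrophils with high mitochondrial content varied between libraries, some of which held very few neutrophils in a given range. Between 2000 and 4000 UMIs, 12 of 100 and 3 of 36 neutrophils were at or above 10% in UUO 1 and 2. In Control 5 these were 38 of 62, in Control 6 they were 19 of 69, and in Control 2 only 1 of 22. Control 4 had 0 of 4, Control 1 had 1 of 8 and Control 3 had 1 of 1. Between 1000 and 2000 UMIs, 1 of 21 and 7 of 14 were in UUO 1 and 2, against 8 of 10 in Control 4, 86 of 92 in Control 5 and 7 of 38 in Control 6. Controls 1 to 3 had 0 of 9, 0 of 2 and 0 of 2 in that range. These shares were not tested.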
